A study of Mus musculus with 4 samples.

Results

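Effector T cells, regulatory T cells and group 2 innate lymphoid cells (ILC2) of the mouse lung were described together as one set of cells in single-cell RNA-seq libraries. A cell was taken as a member when unique molecular identifiers (UMIs, each the count of 1 captured RNA molecule) were detected for at least 2 of the 8 genes Icos, Cxcr6, Ctla4, Il2ra, Tnfrsf4, Il1rl1, Areg and Ikzf2. It had also to hold 0 UMIs of Cd8a and Cd8b1 (CD8 T cells), Ncr1 (NK cells), Cd79a (B cells), Cdh5 (endothelium), Csf1r (macrophages) and Mcpt8 (basophils). This rule gave 419 of 9363 cells, with 129 of 2264 in WT replicate 1 (WT 1), 90 of 2150 in WT 2, 123 of 3097 in ERG CKO 1 and 77 of 1852 in ERG CKO 2. The members were chosen by the measured levels of these genes, so the detection of the 8 rule genes in them is a description and not a result.

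The study asked what loss of the transcription factor ERG from endothelial cells does to the lung. WT mice carried ERG fl/fl alleles without Cre, and ERG CKO mice carried the same alleles with CDH5-CreER(T), an inducible Cre driven by the promoter of an endothelial adhesion gene, so that lymphocytes are not the cells in which Cre is driven. All 4 mice, on a C57/BL6 background, received 5 daily tamoxifen injections of 0.5 mg, and whole lung was taken on day 90 afterwards. Each library was made from 1 mouse whose age is not given in the sources used here, the WT mice share tamoxifen and the floxed alleles but not Cre, and no group carried Cre alone.

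The libraries held 11263911 to 18646776 UMIs, and the median member held 5405 to 6108 UMIs per library. In cells with a Cdh5 UMI the targeted gene Erg stood at 86.4 and 75.5 counts per 1000000 UMIs (CPM) in the WT libraries and at 92.4 and 73.9 CPM in those labelled ERG CKO. Erg RNA therefore overlapped between the groups, although reads from outside the deleted part of the gene would not show its loss, and every direction given here is between libraries by their labels. Xist was detected in replicate 1 of both groups and Ddx3y in replicate 2 of both, so the sexes were balanced between the groups. Of the members, 1 shared its barcode with a cell of another library and 1 was called a doublet.

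T helper cells that have met antigen carry ICOS, a costimulatory receptor, and CTLA-4, an inhibitory receptor, and those that settle in tissue carry the chemokine receptor CXCR6. Regulatory T cells depend on the transcription factor Foxp3, hold CTLA-4, the high-affinity IL-2 receptor chain CD25 (Il2ra), OX40 (Tnfrsf4) and Helios (Ikzf2), and restrain other lymphocytes. ILC2 lack an antigen receptor, need GATA3, sense IL-33 through its receptor ST2 (Il1rl1), and in the lung release type 2 cytokines and the repair factor amphiregulin (Areg). Gamma-delta T cells with an IL-17 program are also resident in the lung and hold the IL-23 receptor and the scavenger receptor Cd163l1.

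The members fell into 3 subsets. A Foxp3 UMI was present in 33 cells, 311 further cells held a UMI of Cd3d, Cd3e or Cd3g (the signalling chains of the T cell receptor), and 75 cells had neither. All 33 Foxp3-positive cells also had a Cd3 UMI. At least 3 of 13 regulatory T cell markers other than Foxp3 and the rule genes were found in 26 of the 33 cells and in 90 of the 311 other Cd3-positive cells. Among the 311 other Cd3-positive cells, 255 had a UMI of the alpha chain constant gene Trac. A cell was called lymphoid-led when it had more genes of a lymphoid reference list (Cd3d, Cd3e, Cd3g, Trbc2, Thy1, Cd2, Il7r and Gata3) than of any of 10 lists for other lineages. Since the Cd3 genes define the subsets, the count was also made with the other 5 reference genes alone, which led in 30 of 33 Foxp3-positive, 278 of 311 other Cd3-positive and 33 of 75 Cd3-negative cells. The name ILC2 is therefore used below only for the lymphoid-led Cd3-negative cells, as ILC2-like, and the other 42 cells are kept apart.

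Over all members, Icos was detected in 76.6%, Ctla4 in 50.4%, Ikzf2 in 46.3%, Cxcr6 in 41.3%, Tnfrsf4 in 27.4%, Il2ra in 26.7%, Areg in 22.2% and Il1rl1 in 16.0%. The subsets met the rule through different genes. Foxp3-positive cells had Ctla4 in 100%, Ikzf2 in 87.9%, Tnfrsf4 in 81.8% and Icos in 72.7%, and Cxcr6 in only 3.03%. Other Cd3-positive cells were picked mostly by Icos (84.2%), Ctla4 (54.7%) and Cxcr6 (45.0%), with Icos plus Ctla4 alone as the commonest combination (47 cells). The lymphoid-led Cd3-negative cells had Cxcr6 and Il1rl1 in 72.7% each, Icos and Il2ra in 66.7% each and Areg in 57.6%, with Ctla4 in 15.2% and Tnfrsf4 in 3.03%. Background from free RNA can be read from the 883 cells with Cd79a and no Cd3, of median depth 4588 UMIs against 5761 in members, in which the 8 rule genes were detected in 0 to 2.60%. The 0 was Tnfrsf4, for which a count of 0 in 883 cells allows a share of up to 0.340%.

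**Figure D1:**
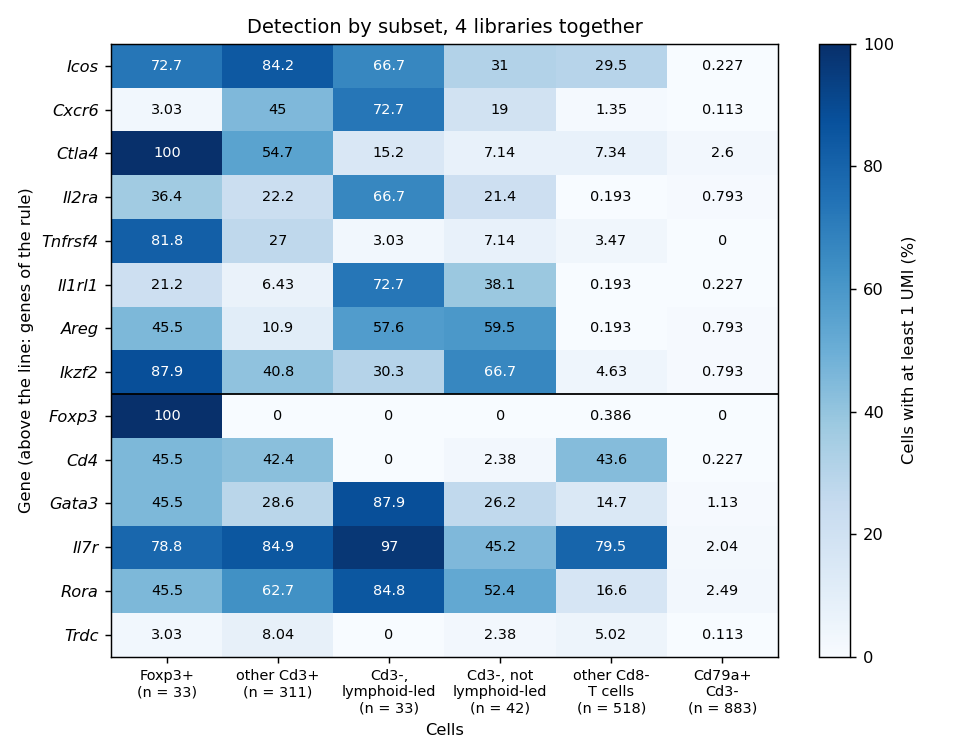
Share of cells with at least 1 UMI of each gene (rows, colour scale and printed values in percent) in 3 subsets of members (the Cd3-negative one split by lymphoid lead), in the other Cd8-negative T cells and in Cd79a-positive cells (columns), over the 4 libraries together. The genes above the line chose the cells. Below it, Foxp3 marks the first column by construction, Gata3 (87.9%) and Il7r (97.0%) are part of the reference list that set the lymphoid-led column apart, Rora (84.8%) is detected most often in that column, and Cd4 was found in 45.5% of Foxp3-positive and 42.4% of other Cd3-positive cells.

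Members also differed from cells at the edge of the rule. The 180 members with exactly 2 rule genes, just inside, had a Cd3 UMI in 81.7% and were lymphoid-led in 82.8%, with a median of 5598 UMIs. The 397 cells with exactly 1 rule gene and no exclusion gene, just outside, had a Cd3 UMI in 61.2% and were lymphoid-led in 61.7%, with a median of 6049 UMIs. Before the exclusions 665 cells had at least 2 rule genes, and Cd8b1 (150 cells) and Cd8a (122 cells) removed the most.

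The first comparison was the share of the lung's cells that the members made up. Members were 5.70% (95% Wilson interval 4.82 to 6.73) of the cells in WT 1, 4.19% (3.42 to 5.12) in WT 2, 3.97% (3.34 to 4.72) in ERG CKO 1 and 4.16% (3.34 to 5.17) in ERG CKO 2. Both ERG CKO libraries lay below both WT libraries, but WT 2 differed from them by less than its interval. The group means were 4.94% ± 1.07 and 4.06% ± 0.132 (SD, n = 2 mice each), a difference of -0.877 percentage points (two-sided exact permutation test p = 0.333, adjusted over 4 shares p = 0.444). With 2 mice against 2 this test cannot give a p below 0.333. Without WT 1 the difference was -0.121 points. Counted against cells with any Cd3 UMI plus the members, the shares overlapped at 24.6% and 21.5% in the WT libraries against 21.5% and 23.8% in the ERG CKO ones.

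Foxp3-positive cells took a larger share of the members in the libraries labelled ERG CKO, with 8 of 129 and 4 of 90 in WT against 13 of 123 and 8 of 77. These shares were 6.20% (3.18 to 11.8) and 4.44% (1.74 to 10.9) in WT against 10.6% (6.28 to 17.2) and 10.4% (5.36 to 19.2) in ERG CKO. The means were 5.32% ± 1.24 and 10.5% ± 0.127, a difference of 5.16 points (exact permutation p = 0.333, the smallest possible, adjusted p = 0.444). The groups did not overlap, while the counting intervals did. Over all cells of the lung, whether members or not, 51 cells held Foxp3, of which 33 were members and 16 carried an exclusion gene (10 of them Cd8a or Cd8b1). The 49 of them with a Cd3 UMI were 2.60% and 1.47% of Cd3-positive cells in the WT libraries against 3.12% and 4.17% in the ERG CKO ones, again without overlap.

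Other Cd3-positive cells were 74.4% and 83.3% of members in the WT libraries against 67.5% and 74.0% in the ERG CKO ones (78.9% ± 6.30 against 70.8% ± 4.63, difference -8.12 points, exact permutation p = 0.333, adjusted p = 0.444). The Cd3-negative share was 19.4% and 12.2% in the WT libraries against 22.0% and 15.6% in the ERG CKO ones, and the groups overlapped (difference 2.97 points, exact permutation p = 0.667). Its direction turned when only lymphoid-led members were kept (-0.658 points), when cells over 10% mitochondrial UMIs were removed (-0.739 points), without WT 2 (-0.612 points) and without ERG CKO 1 (-0.217 points). Mitochondrial UMIs moved with this subset, since 24.0%, 9.09%, 40.7% and 33.3% of its cells in WT 1, WT 2, ERG CKO 1 and ERG CKO 2 were over 10%. For all members these shares were 15.5%, 8.89%, 17.9% and 15.6%.

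**Figure D2:**
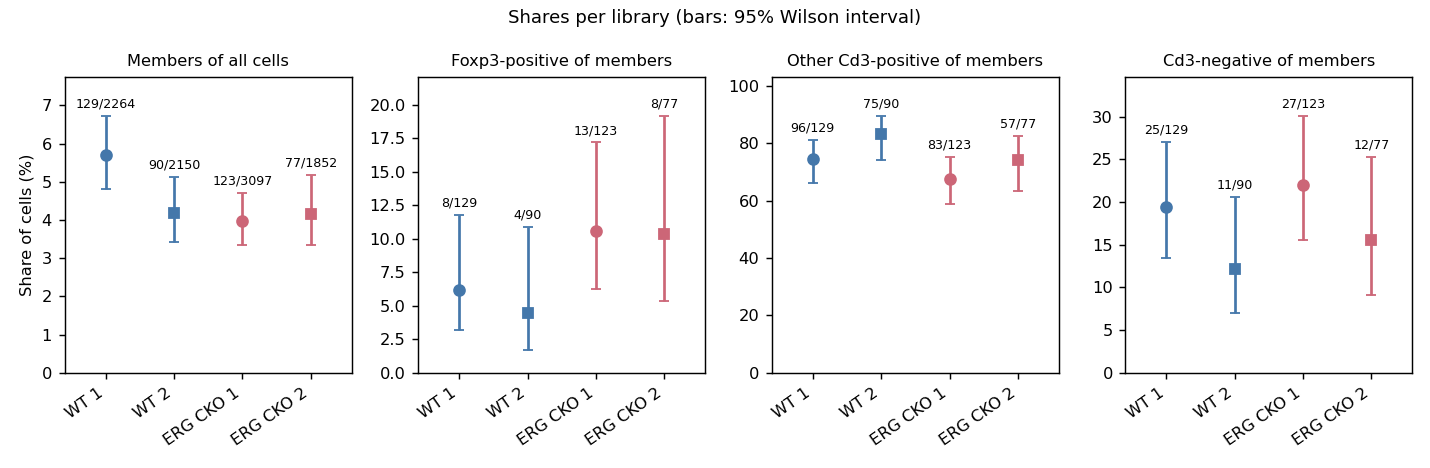
Shares in percent (vertical axes, from 0) of members among all cells and of the 3 subsets among members, per library (horizontal axes), with the cell counts printed and bars for the 95% Wilson interval, which covers counting error only. Foxp3-positive cells lie at 4.44% and 6.20% in WT and at 10.4% and 10.6% in ERG CKO, with intervals that overlap.

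The Foxp3-positive cells held the defining genes of regulatory T cells in all 4 libraries. CPM values below are UMIs of a gene per 1000000 UMIs of the same cells, summed within a library and given in the order WT 1, WT 2, ERG CKO 1 and ERG CKO 2. Ctla4 stood at 945, 675, 1438 and 1516 CPM, Ikzf2 at 895, 189, 1046 and 1163 CPM and Foxp3 itself at 315, 135, 251 and 370 CPM. Ctla4 was higher in both ERG CKO libraries, Ikzf2 also but by a narrower gap to WT 1, and Foxp3 overlapped. WT 2 rests on 4 cells, and these values of rule genes carry no test.

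Markers outside the rule included Nrp1 (neuropilin-1, a receptor of regulatory T cells) at 353, 378, 338 and 405 CPM, with no library over 148 CPM in the other subsets. Tnfrsf18, which encodes the costimulatory receptor GITR, was at 378, 81.1, 261 and 388 CPM. Tnfrsf9 (4-1BB), a receptor induced by activation, was at 75.6, 54.0, 98.0 and 141 CPM. Nrp1 was nearly level across the libraries, GITR was low only in WT 2, and Tnfrsf9 was higher in both ERG CKO libraries. The suppressive cytokine gene Il10 gave 11 UMIs in 3 cells.

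Genes of the tissue-repair regulatory T cell program were also among the rule genes. The growth factor gene Areg gave 265, 405, 926 and 617 CPM, and Il1rl1 gave 37.8, 162, 185 and 300 CPM. Both stood higher in the 2 ERG CKO libraries than in either WT library, as a description without a test. Il2ra showed the same order in CPM at 75.6, 27.0 (1 UMI), 131 and 123 CPM, and Tnfrsf4 did not, at 466, 162, 773 and 388 CPM.

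A subset was further described by the genes whose lowest library exceeded most the highest library of the other subsets. For the Foxp3-positive cells these included Gbp3, an interferon-inducible GTPase (81.1 to 123 CPM against at most 20.2), and Itga6, the integrin alpha-6 chain (98.0 to 189 CPM against at most 48.6). Ighm, the immunoglobulin mu chain of B cells, was also among them at 162 to 436 CPM against at most 97.2. Of the 4 cells in WT 2, 1 had at least 3 dendritic cell markers, and the summed dendritic list stood at 18779 CPM there against 176, 240 and 264 CPM in WT 1, ERG CKO 1 and ERG CKO 2. A gene-wise test between genotypes was not run in this subset, since 3 of the libraries held fewer than 10 cells.

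The other Cd3-positive cells, 96, 75, 83 and 57 per library, included both Cd4-positive cells and cells with a gamma-delta receptor gene. Cd4 was detected in 132 cells (34.4%, 49.3%, 44.6% and 43.9% per library), Trdc, the constant gene of the T cell receptor delta chain, in 25 cells, and neither in 155. At least 3 of the genes on a list for Th17, ILC3 and gamma-delta T cells (the type 17 list, among them Il17a, Il23r, Ccr6, Trdc and Cd163l1) were detected in 81 cells, against 11 of the 518 T cells that had no exclusion gene and fewer than 2 rule genes. Of the 81 cells, 20 had Trdc and 11 had Cd4. Cxcr6 was at 616, 632, 750 and 867 CPM in them and at 154, 85.6, 77.8 and 104 CPM in the remaining 230 cells. At least 3 genes of a Th1 and cytotoxic list were found in 114 cells, and 20 cells met both limits.

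Cells with the type 17 program made up less of this subset in the libraries labelled ERG CKO. They were 35.4% and 26.7% of it in the WT libraries against 18.1% and 21.1% in the ERG CKO ones, by counts of 34, 20, 15 and 12 cells. The limit of 3 genes cuts a range rather than a type, with 21 cells at exactly 2 genes and 20 at exactly 3, and the median cell above it had 1 gene of the Th1 list. After thinning every cell to 1000 UMIs, with 2 shallower cells of WT 1 and 1 of ERG CKO 1 left out, at least 1 gene of the list was detected in 37.2% and 40.0% in the WT libraries against 19.5% and 28.1% in the ERG CKO ones, which is the same order. Trdc was detected in 11.5%, 8.0%, 6.02% and 5.26%. Cells with at least 3 Th1 list genes, at 31.2%, 44.0%, 36.1% and 36.8%, overlapped between the groups. After the same thinning at least 1 Th1 list gene was detected in 39.4%, 52.0%, 52.4% and 52.6%. Both ERG CKO libraries then lay above both WT libraries, by a narrow gap to WT 2. These splits were made after the values were seen and carry no test.

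**Figure D3:**
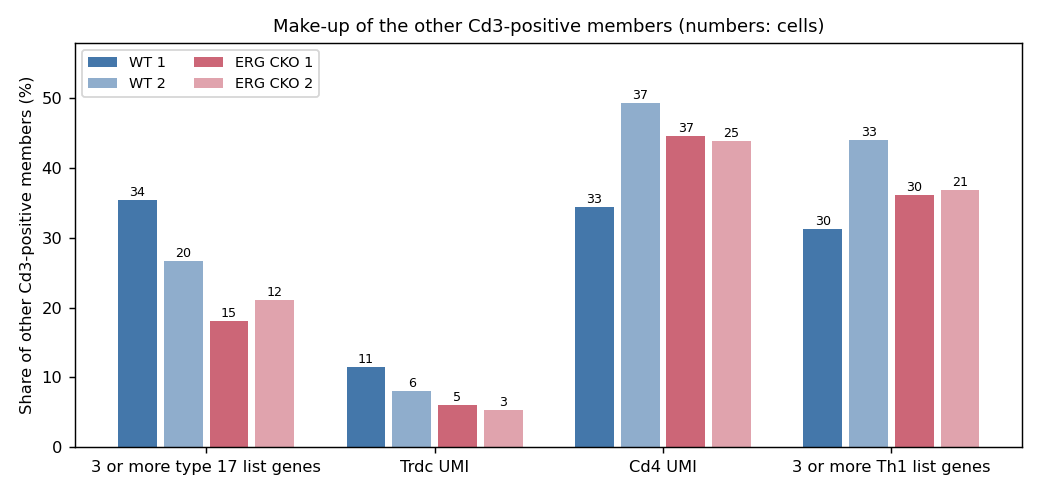
Make-up of the other Cd3-positive members, as the percent of the cells of each library (vertical axis, from 0) that had at least 3 type 17 list genes, a Trdc UMI, a Cd4 UMI or at least 3 Th1 list genes (horizontal axis), with the number of cells above each bar. The type 17 and Trdc bars are lower in both ERG CKO libraries (18.1% and 21.1% against 35.4% and 26.7% for type 17), and the Cd4 and Th1 bars overlap between the groups.

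The second comparison asked which genes differed between WT and ERG CKO in these cells, with UMIs summed per library and the genes that chose the cells left out of the test. In the other Cd3-positive cells edgeR's quasi-likelihood test with Benjamini-Hochberg adjustment called 0 of 5430 genes, which is 0%. The count at an unadjusted p under 0.05 was 331, and DESeq2 called 4. Leaving out WT 1, WT 2, ERG CKO 1 or ERG CKO 2 gave 86, 85, 40 and 76 calls, but each of these fits leaves 1 mouse in a genotype, which is assumed to vary like the 2 mice of the other, so these counts are not comparable with that over 4 libraries. Leaving out the highest cell of each gene gave 30. Of the 5430 genes, 16.8% had both ERG CKO libraries above both WT libraries and 17.9% had both below, without any test.

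The genes of lowest p that were lower in ERG CKO included genes of the type 17 and gamma-delta program, and none passed the adjusted threshold. Pxdc1 stood at 301, 253, 30.4 and 74.3 CPM in the other Cd3-positive cells (log2 fold change -2.45, SE 0.33, edgeR adjusted p = 0.0576). It was past the threshold in 9 of the 10 alternative analyses that kept all 4 libraries (adjusted p 2.80e-16 to 0.0980). Trdc stood at 208, 182, 66.8 and 54.3 CPM (log2 fold change -1.65, SE 0.24, edgeR adjusted p = 0.0582), and was past it in 4 of these 10 alternatives (adjusted p 5.10e-07 to 0.0980). The groups were well apart for both genes, and no library lay between.

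The spliceosome factor gene Cwc25 gave 252, 223, 89.1 and 71.5 CPM (log2 fold change -1.53, SE 0.23, edgeR adjusted p = 0.0582, past the threshold in 7 of the 10 alternatives with 4 libraries, adjusted p 1.03e-06 to 0.0980). The LIM-domain cofactor gene Lmo4 gave 483, 478, 166 and 234 CPM (log2 fold change -1.26, SE 0.21, edgeR adjusted p = 0.0785, past it in 6 of 10, adjusted p 4.21e-06 to 0.176). Cd163l1 gave 82.8, 84.4, 20.2 and 25.7 CPM (log2 fold change -1.86, SE 0.32, edgeR adjusted p = 0.107, past it in 2 of 10, adjusted p 0.000319 to 0.707). All 3 genes had both WT libraries close together and both ERG CKO libraries below them. Cd163l1 came from few cells, 6, 5, 2 and 1 per library, while Lmo4 was detected in 51, 29, 31 and 16 cells.

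In the other Cd3-positive cells, 11 genes of the 16-gene type 17 list passed the filter on low counts. None passed the test, and 10 of the 11 had both ERG CKO libraries below both WT libraries, beside 17.9% of all genes tested (median log2 fold change -1.25, against 0.00 over all genes). They were Il23r, Ccr6, Trdc, Tcrg-C1, Tcrg-C2, Cd163l1, Blk, Tmem176a, Tmem176b and Zbtb16. Tcrg-C1, the gamma chain constant gene, gave 89.9, 97.9, 44.5 and 31.4 CPM, and since its near-identical copies can share reads the split between Tcrg-C1 and Tcrg-C2 is uncertain. Blk, a Src-family kinase, gave 45.8, 61.4, 14.2 and 5.72 CPM. The exception was the cytokine gene Il17a at 122, 123, 4.05 and 166 CPM, of which all 58 UMIs in ERG CKO 2 came from 1 cell.

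Within the 81 cells with the type 17 program Pxdc1 stood at 626, 843, 169 and 356 CPM, and in the remaining 230 cells at 127, 21.4, 2.43 and 3.58 CPM. It was lower in both ERG CKO libraries in each of the 2 groups of cells. Lmo4 was at 1065, 1169, 677 and 1052 CPM inside the program and at 171, 206, 63.2 and 28.6 CPM outside it. The gap of Lmo4 in the program cells was therefore narrow in ERG CKO 2. Trdc was at 560, 591, 363 and 256 CPM in the program cells and at 7.29 and 3.58 CPM in the rest of ERG CKO against 18.9 and 21.4 CPM in WT. As a gene of the type 17 list, Trdc itself helped to make this split. How much of each difference came from the share of program cells was not tested.

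The genes of lowest p that were higher in ERG CKO included killer-cell receptors and Ly6C, again below the threshold. Klrd1, which encodes the CD94 chain of NK receptors, stood at 33.5, 21.1, 107 and 106 CPM in the other Cd3-positive cells (log2 fold change 1.97, SE 0.31, edgeR adjusted p = 0.0639, past the threshold in 5 of the 9 alternatives with 4 libraries that tested it, adjusted p 4.21e-06 to 0.208). Klre1, another lectin-like killer receptor, stood at 28.2, 17.3, 70.8 and 71.5 CPM (log2 fold change 1.64, SE 0.33, edgeR adjusted p = 0.166, past it in 2 of 9, adjusted p 0.00496 to 1.0). Both ERG CKO libraries were above both WT libraries for these receptors. Klrd1 was found in 11, 6, 15 and 10 cells, and 36 of these 42 cells lay outside the type 17 program.

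Ly6c2, a surface antigen of memory T cells and monocytes, gave 122, 125, 235 and 300 CPM (log2 fold change 1.13, SE 0.22, edgeR adjusted p = 0.160, past the threshold in 3 of the 10 alternatives with 4 libraries, adjusted p 0.00122 to 0.288). Its close copy Ly6c1 gave 7.05, 3.84, 46.6 and 28.6 CPM (log2 fold change 2.77, SE 0.58, edgeR adjusted p = 0.184), and the split of reads between the copies is uncertain. Ly6c1 rested on 4, 2, 23 and 10 UMIs, and passed the threshold in 2 of the 9 alternatives with 4 libraries that tested it. Dusp2, a phosphatase that turns off MAP kinases after activation, gave 96.9, 86.3, 235 and 186 CPM (log2 fold change 1.22, SE 0.23, edgeR adjusted p = 0.153, past it in 4 of 10, adjusted p 0.000522 to 0.348). The WT libraries were alike for all 3 genes and neither reached an ERG CKO library.

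The cytotoxic genes followed the same order in part. Of the 14 Th1 and cytotoxic genes 11 were tested in the other Cd3-positive cells and 0 called, and 5 had both ERG CKO libraries above both WT libraries (beside 16.8% of all genes), with 1 below and a median log2 fold change of 0.41. The T cell chemokine gene Ccl5 gave 1344, 1405, 2289 and 1844 CPM (log2 fold change 0.61, SE 0.13, edgeR adjusted p = 0.190). Nkg7, a cytotoxic granule protein gene, gave 312, 342, 553 and 480 CPM (log2 fold change 0.68, SE 0.18, edgeR adjusted p = 0.360). Gzma, encoding granzyme A, gave 3.52, 32.6, 202 and 51.5 CPM, but 91 of its 100 UMIs in ERG CKO 1 were in 1 cell. The transcription factor gene of the Th1 fate, Tbx21, was the gene below.

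NK markers moved with these genes. The summed NK list stood at 166, 99.8, 445 and 274 CPM in the other Cd3-positive cells, 3 of its 4 tested genes (Klre1, Klrc2 and Gzma) had both ERG CKO libraries above both WT libraries, and the defining gene Ncr1 is at 0 by the rule. At least 3 NK list genes were found in 4, 3, 6 and 6 cells. The part of NK cells in the difference was not tested.

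**Figure D4:**
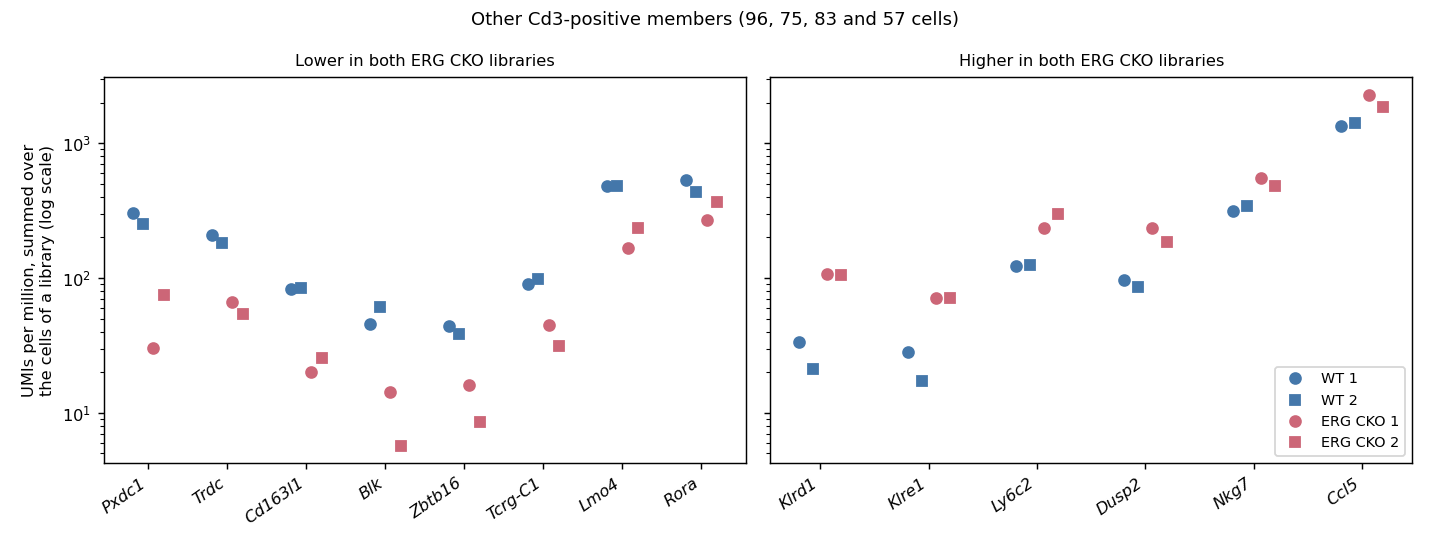
Level of 14 genes in the other Cd3-positive members, as CPM summed over the cells of a library (vertical axis, log scale), with 1 point per library (circles replicate 1, squares replicate 2) and genes on the horizontal axis. Pxdc1, Trdc, Cd163l1, Blk, Zbtb16, Tcrg-C1, Lmo4 and Rora lie lower in both ERG CKO libraries and Klrd1, Klre1, Ly6c2, Dusp2, Nkg7 and Ccl5 higher, and none passed the edgeR test after adjustment.

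Further lists in the other Cd3-positive cells held no called gene, and their counts are read against the 16.8% of all genes that were above in both ERG CKO libraries and the 17.9% that were below. Effector memory and tissue residence genes had 1 above and 3 below of 21 tested, with a median of -0.05. Of 17 tested genes of T cell receptor signalling and NF-kB, 2 were above and 4 below, and of 10 interferon-stimulated genes 4 were above and 1 below. Of 14 immediate early and dissociation stress genes 2 were above and 3 below (median -0.03).

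Over all 419 members edgeR called 0 of 7184 genes (0%) after adjustment, with 274 at an unadjusted p under 0.05 and 2 called by DESeq2. Without WT 2, with 1 WT mouse left, there were 29 calls. Both ERG CKO libraries lay above both WT libraries for 15.0% of genes and below for 17.8%. The lowest adjusted p was 0.881, and the genes of lowest p were largely those of the other Cd3-positive cells, which make up most of the members. Dusp2 gave 79.8, 67.4, 195 and 157 CPM (log2 fold change 1.30, SE 0.20), Klrd1 gave 23.0, 31.6, 78.8 and 83.6 CPM (1.60, SE 0.26) and Pxdc1 gave 236, 195, 64.6 and 56.4 CPM (-1.79, SE 0.19). For all 3 the groups were apart, but after thinning every cell to 1000 UMIs the log2 fold change of Dusp2 was -0.11. Calca, which encodes the neuropeptide CGRP made by some ILC2, gave 62.9, 67.4, 15.5 and 17.5 CPM (log2 fold change -1.94, SE 0.26, edgeR adjusted p = 0.891). Among the rule genes, given without a test, Icos was at 590, 388, 365 and 428 CPM and Cxcr6 at 250, 213, 145 and 187 CPM over all members.

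The 75 Cd3-negative members were of more than 1 kind. Of the 33 lymphoid-led cells, 11, 7, 10 and 5 per library, 28 had at least 3 genes of an ILC2 list that were used neither by the rule nor by the lymphoid reference (11 of 11, 7 of 7, 7 of 10 and 3 of 5 cells). That was also true of 144 of 311 other Cd3-positive cells and 25 of the 42 Cd3-negative cells that were not lymphoid-led, so the list alone does not mark ILC2. The leukocyte gene Ptprc was detected in 32 of 33 lymphoid-led cells and in 27 of the other 42. Among those 42, at least 3 epithelial markers were found in 13 cells, macrophage markers in 13, platelet or erythroid markers in 9 (8 of them in ERG CKO 1) and dendritic cell markers in 5. The combination of Areg and Ikzf2 alone accounted for 15 Cd3-negative cells, of which 0 were lymphoid-led (a count of 0 in 15 allows a share of up to 20.0%) and 10 had at least 3 epithelial markers.

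**Figure D5:**
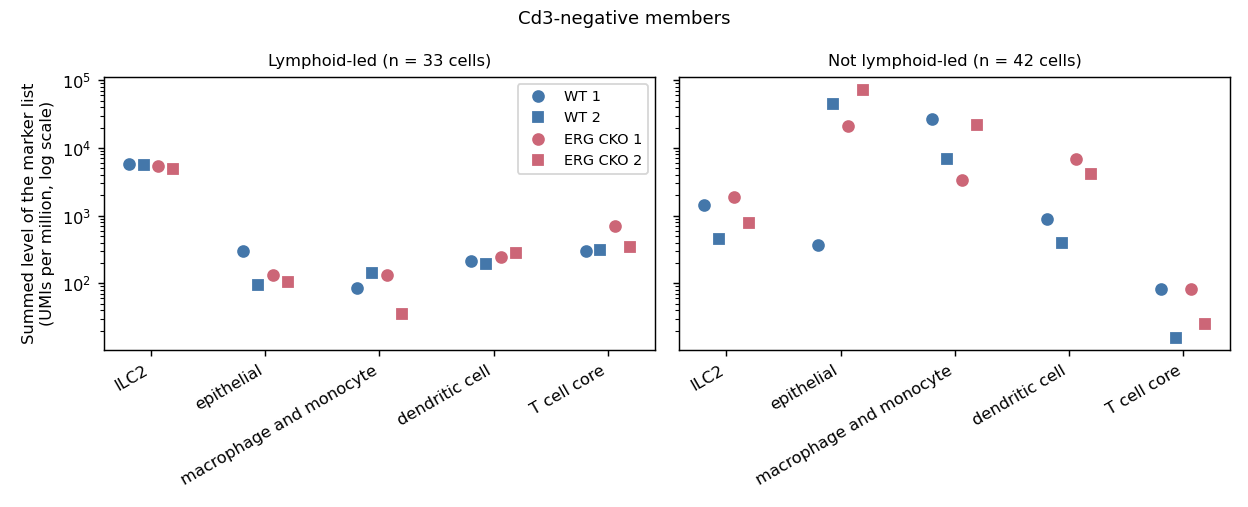
Summed level of marker lists (horizontal axis) in the lymphoid-led and the other Cd3-negative members, in CPM (vertical axis, log scale), with 1 point per library (circles replicate 1, squares replicate 2). In the 33 lymphoid-led cells the ILC2 list stands at 4945 to 5741 CPM in all 4 libraries, and in the other 42 cells epithelial, macrophage and dendritic cell markers vary widely between libraries. The ILC2 list includes Gata3 and Il7r, which are part of the lymphoid reference that set the lymphoid-led cells apart.

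The lymphoid-led Cd3-negative cells had the summed ILC2 list, with Gata3 and Il7r of the lymphoid reference in it, at 5741, 5551, 5437 and 4945 CPM. Gata3, the transcription factor ILC2 need, stood at 739, 977, 822 and 627 CPM and was used to call these cells lymphoid-led. Rora, encoding a nuclear receptor required for ILC2, was used by neither and stood at 767, 786, 1009 and 1254 CPM. Hs3st1, a heparan sulfate sulfotransferase gene, gave 654, 310, 392 and 313 CPM. These levels overlapped between the genotypes for Gata3 and Hs3st1, while the CPM of Rora was higher in both ERG CKO libraries. The share of cells with a Rora UMI had the other order, at 90.9%, 100%, 70.0% and 80.0%. Cd4 and Trdc were detected in 0 of the 33 cells. Counting error alone puts the upper limit of detection at 9.09% of such cells. This does not limit the share that express either gene, since Cd4 was detected in only 45.5% of Foxp3-positive cells. Beta chain genes of the T cell receptor were common, with Trbc2 (part of the lymphoid reference) in 27 of the 33 cells and Trbc1 in 23. The alpha chain gene Trac was detected in 4. The lymphoid-led cells were therefore not free of T cell receptor transcripts.

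The effector genes of these cells were uneven between cells. Areg gave 2401, 2549, 747 and 940 CPM and Il1rl1 gave 512, 858, 374 and 488 CPM, both lower in the 2 ERG CKO libraries. For Areg, 104 of the 169 UMIs in WT 1 and 93 of the 107 in WT 2 were in 1 cell each. Both are rule genes and carry no test. The make-up of these cells moved with them: the Th1 and cytotoxic list stood at 142, 191, 299 and 6407 CPM, 104 of the 105 Ccl5 UMIs in ERG CKO 2 were in 1 cell, and at least 3 genes of that list were found in 0, 0, 1 and 2 cells. Its part in the differences was not tested. Arg1, encoding arginase-1, gave 213, 572, 37.4 and 104 CPM from 8, 6, 2 and 2 cells, and Calca gave 412, 572, 131 and 0 CPM from 5, 3, 2 and 0 cells. Klrg1, a receptor of activated ILC2, gave 42.6, 214, 187 and 383 CPM and overlapped between the groups.

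The type 2 cytokine genes were sparse. Il5 gave 2, 0, 8 and 3 UMIs (28.4, 0, 149 and 104 CPM), higher in both ERG CKO libraries but with 7 of the 8 UMIs of ERG CKO 1 in 1 cell, and Il13 gave 3 UMIs in all, in 2 cells of ERG CKO 2. Csf2, which encodes GM-CSF, gave 1179, 1620, 168 and 2055 CPM from 14 cells, with 48, 53 and 55 UMIs in the highest cell of WT 1, WT 2 and ERG CKO 2. These genes were not tested in the lymphoid-led cells, since 2 of the libraries held fewer than 10 of them.

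Across all 75 Cd3-negative cells edgeR called 0 of 3069 genes (0%), with 28 at an unadjusted p under 0.05 and 4 called by DESeq2. Without WT 1 there were 55 calls and without WT 2 there were 16, each with 1 WT mouse left. Both ERG CKO libraries lay above both WT libraries for 9.91% of genes and below for 11.1%. The genes of lowest p that were higher were Cd74 (the MHC class II invariant chain, at 527, 367, 7177 and 4058 CPM), Mgl2 (0, 0, 339 and 167 CPM) and Cst3 (338, 302, 2295 and 1418 CPM). All 3 are abundant in dendritic cells, and the summed dendritic cell list in this subset stood at 621, 343, 5014 and 3113 CPM. One cell held 953 of the 1354 Cd74 UMIs in ERG CKO 1 and 1 held 235 of 438 in ERG CKO 2, and for Mgl2 62 of 64 and 18 of 18 UMIs were in 1 cell each. In the lymphoid-led cells alone Cd74 gave 0, 0, 280 and 139 CPM.

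The genes of lowest p that were lower in the Cd3-negative cells were Calca at 211, 142, 37.1 and 27.8 CPM (log2 fold change -2.38), the LIM-domain gene Fhl2 at 94.2, 112, 10.6 and 0 CPM (-3.86) and Gm17056 at 211, 207, 53.0 and 18.5 CPM (-2.45). Each had an edgeR adjusted p of 1.0. Of 16 ILC2 list genes 11 were tested in this subset and 0 called, with 1 above and 3 below, beside 9.91% and 11.1% of all genes, and a median log2 fold change of -0.10 against -0.06 over all genes tested. Of 14 immediate early and dissociation stress genes 0 were above and 5 below, beside the same 9.91% and 11.1%, with a median of -1.30. Several of the 14 stood far higher in WT 2 than in any other library, as Jun at 327, 3611, 726 and 667 CPM and Atf3 at 83.2, 2818, 159 and 222 CPM. Fosb and Junb were nearly level between the WT libraries. In the lymphoid-led cells alone Fos overlapped between the groups, at 2174, 1596, 3494 and 1288 CPM.

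The last comparison asked whether the difference between genotypes was itself different in members and in the 518 other Cd8-negative T cells of the same libraries, which had a Cd3 UMI, no exclusion gene and fewer than 2 rule genes. A test of the interaction, with the library as a block, called 2 of 7575 genes (0.0264%), and 279 had an unadjusted p under 0.05. Both called genes rested on single cells. The chemokine gene Ccl17 (difference of log2 fold changes 11.46, SE 0.74, edgeR adjusted p = 0.0177) gave 1, 0, 90 and 1 UMIs in members, 89 of them in 1 cell, and 67, 1, 2 and 0 UMIs in the other T cells, 65 of them in 1 cell. The haemoglobin gene Hba-a1 (-7.87, SE 0.56, edgeR adjusted p = 0.0177) gave 8, 1382, 15 and 3 UMIs in members, 1379 of them in 1 cell. Without WT 1, WT 2 or ERG CKO 1 the number of calls was 49, 52 and 0, each with 1 mouse left in a genotype. For Klrd1, Pxdc1 and Trdc the interaction was 1.72 (SE 0.38), -2.11 (SE 0.82) and -1.43 (SE 0.79), each with an edgeR adjusted p of 0.997, so their differences were not shown to differ between members and the other T cells.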

How the data were processed

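Whole-lung cells of 2 WT and 2 ERG CKO mice were profiled on the 10x GemCode platform. The submitters' processing notes name Cell Ranger 3.1.0 and the mm10 build. The authors deposited raw UMI counts per gene and cell for 9363 cells and 20076 gene rows, and their limits for filtering cells are not given in the sources used here. The paper reports fewer cells after quality filtering than this matrix holds, and which cells were left out is not given. The study compared genes cell by cell, whereas here the mouse was the replicate. No further filter on cells was applied, and doublets were called with Scrublet (scanpy 1.11.5), which marked 66 cells (0.705%), and kept.

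Groups came from the genotype labels. UMI counts were summed per library and tested with edgeR 4.0.16 (quasi-likelihood test, TMM, filterByExpr) in R 4.3.3, with Benjamini-Hochberg adjustment over all genes tested and a threshold of 0.05. DESeq2 1.42.0 was an alternative. Genes that chose the cells stayed in the library sizes and out of the test, and only subsets with at least 10 cells in every library were tested. CPM was computed from the deposited counts. Shares were compared by exact two-sided permutation tests (scipy 1.17.1), with 95% Wilson intervals. Intervals and limits from a count of 0 cover counting error only. Test scripts were tested on simulated data.

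Named genes were the rule genes, up to 10 called genes per direction or else the 5 (3 in the Cd3-negative subset and the interaction) of lowest p, and members of 28 gene lists. The members and lists were chosen with earlier results of these data known. Genes described beyond that rule were chosen after their values were seen. Same-numbered replicates share the sex as well as the number, so the mice of a genotype differ in sex. Over 7192 genes the deviations of same-numbered replicates from the group means correlated at -0.381. P-values measure only the spread between these 4 mice. Some results are not reported here.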

Additional observations from a re-analysis of the deposited data

Results flagged for a closer look

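In the interaction of genotype with population, 2 genes passed the edgeR test in opposite directions between members and the other Cd8-negative T cells. For Ccl17 the difference of log2 fold changes was 11.46 (SE 0.74, edgeR adjusted p = 0.0177). Its adjusted p was 0.279 without WT 1 and 1.0 without ERG CKO 1, and the difference ran from 9.13 to 11.60 over the libraries left out. For Hba-a1 the difference was -7.87 (SE 0.56, edgeR adjusted p = 0.0177). It was -1.58 (adjusted p = 0.973) without the highest cell of each gene, -5.66 (adjusted p = 0.596) without WT 2 and -6.52 (adjusted p = 1.0) without ERG CKO 1. Reads of Hba-a1 can be shared with its near-identical copy Hba-a2.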

How the results depend on the processing

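The share of members differed by -0.877 points between groups, by -0.0867 points after thinning to 1000 UMIs, by -1.78 points of Ptprc-positive cells, by -9.41 points of T cells without exclusion genes (an alternative chosen after seeing the data), and by -1.63 to -0.121 points with 1 library left out. The Foxp3-positive share difference was 11.8 points with at least 3 rule genes and 4.28 to 6.03 points with 1 library left out. The other Cd3-positive share differed by -12.6 to -3.67 points with 1 library left out. The Cd3-negative share reversed to -0.658 points among lymphoid-led members, -0.739 points without cells over 10% mitochondrial UMIs, -0.612 points without WT 2 and -0.217 points without ERG CKO 1, within a range of -0.612 to 6.55. The causes of these changes were not tested.

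Calls over all members were 2 with DESeq2, 132 without the filter on low counts (44 higher and 88 lower), 3 with at least 3 rule genes, 6 in lymphoid-led members, 7 without the highest cell of each gene and 0 to 29 with 1 library left out, where the lone mouse of a genotype is assumed to vary like the 2 of the other. In the other Cd3-positive cells they were 4 with DESeq2, 1 with its size factors in edgeR, 73 without the filter (19 higher and 54 lower), 5 with at least 3 rule genes, 10 lymphoid-led, 12 without cells over 10% mitochondrial UMIs, 4 without doublets, 30 without the highest cell of each gene and 40 to 86 with 1 library left out. In the Cd3-negative cells DESeq2 called 4 and leaving out 1 library 0 to 55. The interaction gave 33 calls without the filter (27 higher and 6 lower), 0 after thinning, 33 in lymphoid-led cells (22 higher and 11 lower), 3 without the highest cell of each gene and 0 to 52 with 1 library left out. The cause of these changes was not tested.

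The replicate number was also used as a block, which is a block of sex too. This gave 0 calls over all members, 0 in the other Cd3-positive and 0 in the Cd3-negative cells. The crossed pairing, which joins mice of opposite sex and was added after seeing the data, gave 17, 4 and 10.

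Over all members the log2 fold change reversed after thinning for Dusp2 (-0.11) and Trdc (0.85), and for Ccl5 with at least 3 rule genes (-1.01). Of 352 values of named genes under alternatives, 3 reversed, 223 kept their side of the threshold, 121 passed it and 5 lost the call. No test was run for the Foxp3-positive subset, nor for Cd3-negative cells under thinning, the 3-gene rule, lymphoid lead or the mitochondrial limit, where a library held under 10 cells. The number of cells, 4 to 13 Foxp3-positive and 5 to 11 lymphoid-led Cd3-negative per library, limits what those subsets can show.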
